A study of Mus musculus with 16 samples.

Results

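Ctsll3, Klk7 and Csta1 are 3 mouse genes of proteolysis, 2 proteases and 1 protease inhibitor, that were chosen by how their signal changed when blastocysts were treated with inhibitors of MAP kinase pathways. Ctsll3 and Klk7 were taken for changes with single inhibitors, and Csta1 for a change with all of them. Each gene had 1 probe set whose annotation names it and no other gene: 1421684_at for Ctsll3, 1423542_at for Klk7 and 1435760_at for Csta1. These were 3 of 45037 probe sets measured in all samples, and 3 of 18193 genes that are named alone. Because the differences between the groups chose the genes, those differences are only described below. Calls and intervals given for them are no independent support. Total RNA came from mouse blastocysts, preimplantation embryos with an outer trophectoderm, an inner cell mass and a cavity, and signals were read on Affymetrix arrays. The SB group had 20 µM SB203580, used to inhibit p38 kinases, the SP group 25 µM SP600125, used to inhibit JNK, and the U group 20 µM U0126, used to inhibit MEK upstream of ERK. For the WT blastocysts the labels name no treatment and no solvent. Each of the 4 groups had 3 samples. Replicate 1 was read on a 430A and a 430B array after one labelling assay, and replicates 2 and 3 on 430 2.0 arrays after another, so signals are compared only within an array type. The labels name no mouse strain, no age of the embryos and no number of pooled embryos.

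Ctsll3 is a relative of cathepsin L, a cysteine protease of the papain family that breaks down proteins in lysosomes and, when released, outside the cell. In the mouse its gene lies beside a group of cathepsin genes that are expressed in the placenta. Klk7 is a kallikrein, a secreted serine protease with chymotrypsin-like activity, best known in human and mouse skin, where it cuts the junctions between the outermost cells. Csta1 belongs to the stefins, small inhibitors without a secretion signal that block papain-family cathepsins, and therefore proteases of the class of Ctsll3 and not of the class of Klk7. Proteases and their inhibitors are studied in the blastocyst for hatching from the zona pellucida and for invasion of the uterus by the trophoblast. The arrays measured RNA, and neither protein, secretion nor activity.

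The sequences before the start sites are shown as a description of these 3 genes, whose patterns across the inhibitors differed. A link between sequence and pattern was not tested. Each is the 250 bases before the RefSeq start in GRCm38.p6, on the gene's own strand, 5′ to 3′, and capitals mark the motifs found. The Ctsll3 window is chr13:60802845-60803094 on the minus strand, the Klk7 window chr7:43811044-43811293 on the plus strand and the Csta1 window chr16:36131190-36131439 on the minus strand.
Ctsll3: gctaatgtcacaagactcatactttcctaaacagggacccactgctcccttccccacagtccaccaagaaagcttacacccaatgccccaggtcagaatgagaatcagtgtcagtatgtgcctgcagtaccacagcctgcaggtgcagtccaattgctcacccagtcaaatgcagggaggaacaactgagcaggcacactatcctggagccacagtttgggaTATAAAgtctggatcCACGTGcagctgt
Klk7: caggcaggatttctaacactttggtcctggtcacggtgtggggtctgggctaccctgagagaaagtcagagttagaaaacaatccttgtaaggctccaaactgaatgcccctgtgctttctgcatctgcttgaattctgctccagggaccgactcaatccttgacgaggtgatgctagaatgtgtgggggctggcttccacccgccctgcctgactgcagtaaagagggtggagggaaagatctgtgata
Csta1: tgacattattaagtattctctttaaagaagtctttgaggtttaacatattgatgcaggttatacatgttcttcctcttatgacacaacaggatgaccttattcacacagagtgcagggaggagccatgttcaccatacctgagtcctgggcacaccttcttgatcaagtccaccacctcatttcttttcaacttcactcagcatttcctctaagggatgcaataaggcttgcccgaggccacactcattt

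A search was made on both strands for 5 motifs: TATAAA (the TATA box), TGANTCA (AP-1, whose Jun and Fos subunits lie downstream of JNK and ERK), TGACGTCA (the cyclic AMP response element), CACGTG (an E-box) and CCGGAAGT (an ETS site). N stands for any base. The Ctsll3 window held TATAAA from 28 to 23 bases before the start and CACGTG, which reads the same on both strands, from 13 to 8 bases before it, with no overlap. Among 32851 promoter windows of the same length, 12.4% held TATAAA, 6.75% TGANTCA, 1.55% TGACGTCA, 6.02% CACGTG and 2.88% CCGGAAGT. The Klk7 and Csta1 windows held none of the 5 strings of letters, which says only that they are not in these windows. G and C made up 51.6% of the Ctsll3 window, 52.4% of the Klk7 window and 42.4% of the Csta1 window.

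Ctsll3 was the gene in which SB and SP went opposite ways. On the 430 2.0 arrays the Ctsll3 signal was 209.0 and 266.4 in SB blastocysts, 3664.7 and 3518.8 in SP blastocysts and 882.0 and 445.1 in U blastocysts, against 1388.1 and 707.3 in WT blastocysts. SB was the lowest and SP the highest group there, while U and WT overlapped. On the 430A arrays the signal was 4.8 in SB, 1064.2 in SP and 578.8 in U, against 1041.3 in WT. The order of the groups was SP, WT, U, SB on both array types, but SP and WT nearly coincided on 430A.

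The SB signal of 4.8 on 430A stood at percentile 4.4 of its array, below that array's 20th percentile of 25.2 and below the constant of 12.6 that was added to every signal before taking log2, so it is a value in the background. The other Ctsll3 signals lay well above background, at percentiles 68.7 and 71.4 in SB and 94.6 and 94.5 in SP on the 430 2.0 arrays. The mean on the 430 2.0 arrays was 0.227 times WT in SB, 3.43 times WT in SP and 0.633 times WT in U. On 430A the ratio of SP to WT was 1.02.

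The fitted log2 change of Ctsll3 from WT was -3.32 ± 0.57 in SB, 1.24 ± 0.57 in SP and -0.71 ± 0.57 in U (SE, n = 3 per group, array type in the model). Replicate by replicate, SB differed from the WT mean of the same array type by -5.92, -2.18 and -1.85 on the log2 scale, and SP by 0.03, 1.87 and 1.81. The U differences were -0.83, -0.17 and -1.13. With the 430 2.0 arrays alone the SB change was -2.01 and the SP change 1.84, and without SB replicate 1, the background value, the SB change was -2.24. Without WT replicate 1 the SP change was 1.90 and the U change -0.06, and without WT replicate 3 the SP change was 0.72 and the U change -1.23. Without U replicate 1 the U change was -1.29. Set against each other, SB lay below SP by a log2 difference of -4.56 ± 0.57, SB below U by -2.60 ± 0.57, and SP above U by 1.95 ± 0.57.

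**Figure D1:**
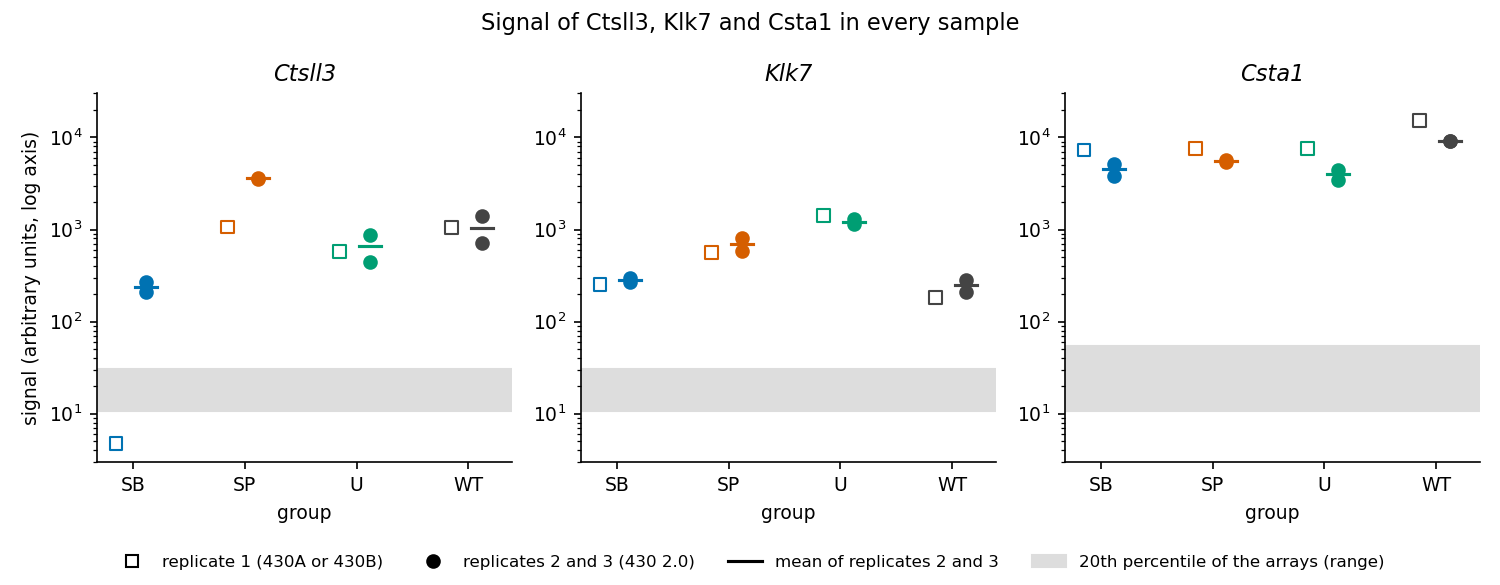
Deposited signal (arbitrary units, log axis) of Ctsll3, Klk7 and Csta1 in the SB, SP, U and WT samples. Open squares are replicate 1 on 430A or 430B, filled circles replicates 2 and 3 on 430 2.0, short lines the mean of those 2, and the grey band the range of the arrays' 20th percentiles. The Ctsll3 signal of 4.8 in SB replicate 1 is the only point below the band.

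The plot of signals by group shows that only Ctsll3 had a signal in the background. It also shows that replicate 1 lay apart from replicates 2 and 3 for Csta1 in every group, which is why no mean was taken across array types.

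Klk7 was highest in U blastocysts, intermediate in SP blastocysts and low in SB and WT blastocysts. On the 430 2.0 arrays its signal was 294.4 and 270.4 in SB, 803.2 and 582.3 in SP and 1298.0 and 1140.2 in U, against 285.4 and 211.6 in WT. On 430A it was 255.5 in SB, 561.2 in SP and 1419.8 in U, against 182.1 in WT. Within each array type every U signal lay above every SP signal, and every SP signal above every SB and WT signal. SB and WT overlapped on the 430 2.0 arrays. The lowest Klk7 signal, in WT replicate 1, stood at percentile 54.6 of its array, so that no group was in the background.

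Mean Klk7 signal on the 430 2.0 arrays was 1.14 times WT in SB, 2.79 times WT in SP and 4.91 times WT in U, and on 430A the ratios were 1.40, 3.08 and 7.80. The fitted log2 change was 0.28 ± 0.21 in SB (95% interval -0.17 to 0.73), 1.47 ± 0.21 in SP and 2.46 ± 0.21 in U (SE, n = 3). The replicates differed little: the U differences from WT were 2.88, 2.34 and 2.16, the SP differences 1.56, 1.66 and 1.20, and the SB differences 0.46, 0.25 and 0.13. U exceeded SP, as the SP minus U difference of -0.99 ± 0.21 gives, and SB lay below U by -2.18 ± 0.21.

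Csta1 was lower with every inhibitor than in WT blastocysts. On the 430 2.0 arrays it was 5154.0 and 3850.6 in SB, 5631.9 and 5463.2 in SP and 3476.3 and 4475.1 in U, against 9059.3 and 9178.9 in WT. On 430B it was 7295.5 in SB, 7523.5 in SP and 7638.1 in U, against 15132.2 in WT. Within each array type all inhibitor samples lay below all WT samples. The signals stood at percentiles 94.5 to 99.5 of their arrays, far from background.

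The mean on the 430 2.0 arrays was 0.494 times WT in SB, 0.608 times WT in SP and 0.436 times WT in U, and on 430B the ratios were 0.482, 0.497 and 0.505. The fitted log2 change was -1.04 ± 0.13 in SB, -0.81 ± 0.13 in SP and -1.13 ± 0.13 in U (SE, n = 3). The differences of single inhibitor samples from the WT mean of their array type ran between -1.39 and -0.69. The inhibitors were close to one another, with a log2 difference of -0.23 between SB and SP (95% interval -0.51 to 0.06), 0.09 between SB and U (-0.19 to 0.38) and 0.32 between SP and U (0.04 to 0.60). The order below WT was SP, SB, U on the 430 2.0 arrays, where SB and U overlapped, and U, SP, SB on 430B.

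**Figure D2:**
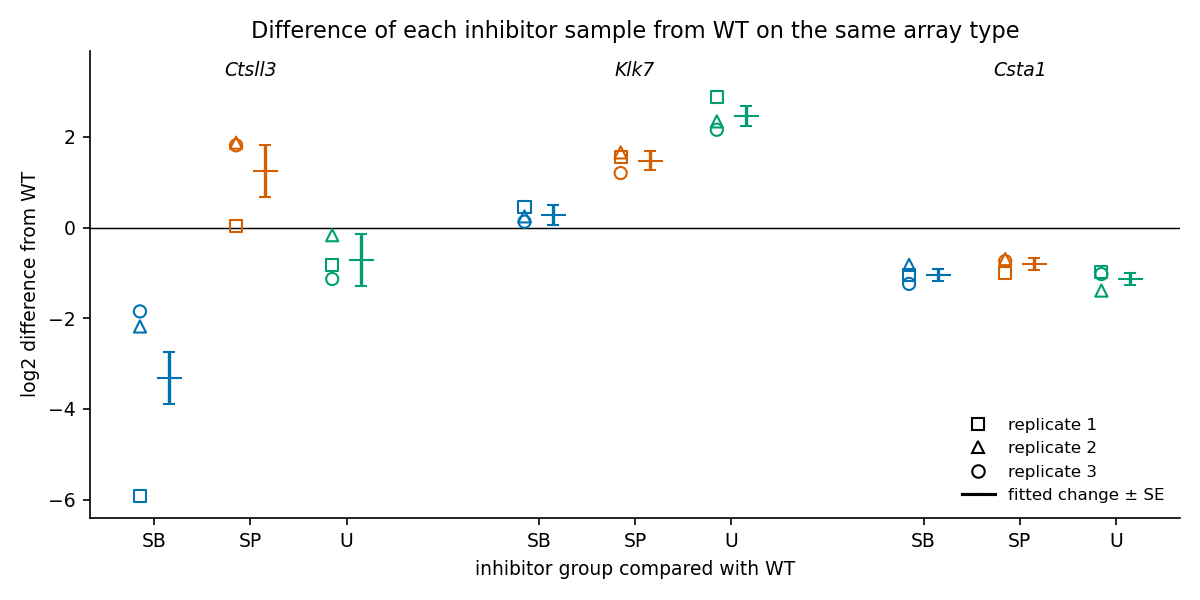
Log2 difference of each inhibitor sample from the mean of WT on the same array type, with the fitted change and its SE beside it (n = 3 per group), for Ctsll3, Klk7 and Csta1 in SB, SP and U. Csta1 differences are all negative and close together, Klk7 differences rise in the order SB, SP, U, and Ctsll3 replicate 1 stands apart in SB and in SP.

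The plot of replicate differences sets the spread beside the sizes. The standard error was 0.57 for Ctsll3, 0.21 for Klk7 and 0.13 for Csta1, the same in every comparison because the groups share 1 estimate of the spread. All comparisons with WT use the same 3 WT samples. In the fit over all 27022 probe sets tested, 2 of the 3 genes passed an adjusted p under 0.05 in each comparison, Ctsll3 and Csta1 with SB and Klk7 and Csta1 with SP and with U, where 0.389% of all probe sets passed with SB, 0.592% with SP and 0.448% with U. These contrasts chose the genes, and nothing is read from that count or from where the calls hold. Without the intensity trend every one of these calls except Klk7 with U was lost. Ctsll3 with SB also lost it without WT replicate 1 or 2, and Csta1 with SP on the 430 2.0 arrays alone and without SP replicate 1. Across the 12 samples, centred within array type, the log2 signals of Klk7 and Csta1 had a Pearson correlation of -0.59, Ctsll3 and Klk7 of 0.30, and Ctsll3 and Csta1 of 0.34. The points share the 4 groups, so these values describe the group pattern and little else.

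Cell type markers were set beside these changes, since in whole blastocysts fewer cells of a type and less RNA per cell cannot be told apart. All 12 markers of primitive endoderm, all 8 of the inner cell mass with epiblast and all 11 of trophectoderm were above the filter on low signal, and the trophectoderm keratins Krt8 and Krt18 averaged 36232.8 and 44637.4 on the 430 2.0 arrays. Of the markers of uterine and oviduct epithelium 7 of 9 were below the filter, as were 6 of 8 of cumulus and granulosa cells and 5 of 8 of blood and immune cells, among them Ltf, Amh and Ptprc. That filter uses the 430 2.0 arrays only. In replicate 1 the granulosa marker Foxl2 read 1057.9 to 1714.4 and the uterine marker Wnt7a 295.6 to 776.5. Their 430 2.0 means were 119.9 and 87.6. Amh read 10.8 to 20.8 in replicate 1. The summed signal of the 12 primitive endoderm markers on the 430 2.0 arrays was 30553.6 to 33271.9 in SB, 27023.7 to 28293.0 in SP and 26668.6 to 33762.7 in U, against 38819.0 to 39058.9 in WT. Of these 12 genes 1 fell with SB, 9 with SP and 2 with U at an adjusted p under 0.05 in limma, where 0.492% of all 12614 tested genes fell with SB, 0.523% with SP and 0.412% with U. Csta1 and this sum were both lower with SB, SP and U than in WT. The median log2 change of the 12 markers was -0.57 with SB, -1.33 with SP and -0.62 with U. The fitted changes of Csta1 were -1.04, -0.81 and -1.13, and its order of the inhibitors differed between array types. Dab2, with a mean signal of 14231.6, was the largest part of the sum and passed with no inhibitor. The part of the markers in the change of Csta1 was not tested. The 11 trophectoderm markers summed to 109355.4 to 115275.0 in SB, the group with low Ctsll3, against 121224.8 to 133583.4 in WT. Their sum in SP was 123262.5 to 130610.1 and in U 124868.2 to 131837.2. Krt8 and Krt18 make up most of these sums. Among the 11 markers Elf5, a transcription factor of the trophoblast, alone passed the test, and with SP only. Its log2 change was -1.14 ± 0.23 with SP (limma, adjusted p = 0.0294). With SB it was -1.002 ± 0.230 and with U -0.48 ± 0.23, neither past the test (limma, adjusted p = 0.0753 and 0.418). At an unadjusted p under 0.05 in limma, 4 of the 11 were lower and none higher with SB. With SP 2 were higher and 1 lower, and with U 1 was higher and 1 lower. Of all tested genes 6.48% were lower and 4.9% higher with SB at that level.

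The 8 inner cell mass and epiblast markers summed on the 430 2.0 arrays to 20784.2 to 22446.6 in U, where Klk7 was highest, against 17950.9 to 19510.4 in WT. Their sum was 17393.9 to 20926.5 in SB, which overlapped U, and 17515.0 to 17788.8 in SP, where Klk7 was intermediate. Of these 8 genes Sox2 and Fgf4, a pluripotency factor and a growth factor of the inner cell mass, rose with U, by log2 changes of 0.87 ± 0.14 and 1.33 ± 0.20 (limma, adjusted p = 0.00853 and 0.0055). At an unadjusted p under 0.05 in limma, 6 of the 8 were higher with U, as were 7.59% of all tested genes. Nanog and Klf4 had negative log2 changes with U, of -0.34 ± 0.20 and -0.06 ± 0.15, neither past the test. None of the 8 passed with SB or SP, where at an unadjusted p under 0.05 there were 2 higher with SB and 1 higher and 1 lower with SP. Of all tested genes 0.143% rose with SB, 0.381% with SP and 0.246% with U at an adjusted p under 0.05. On the 430 2.0 arrays summed blood and immune markers were 1765.7 to 1773.4 in SP, where Ctsll3 was highest. They were 457.2 to 643.2 in SB, where it was lowest, against 836.4 to 867.7 in WT. On 430A and 430B the sum was 358.2 in SB, 719.9 in SP and 371.9 in U, against 393.5 in WT. Ctsll3 on 430A was 4.8, 1064.2 and 578.8 in these groups, against 1041.3 in WT. The largest part of the sum in SP was Laptm5, a lysosomal membrane protein gene of blood cells. Its 430 2.0 signal was 211.8 and 384.1 in SB, 1604.7 and 1576.3 in SP and 467.2 and 742.9 in U, against 696.9 and 660.5 in WT. Laptm5 rose with SP by a log2 change of 1.33 ± 0.25 (limma, adjusted p = 0.0201). The other tested genes of that list were both dim. Lyz2, the lysozyme of macrophages, had log2 changes of 1.08 ± 0.43 with SB and 0.49 ± 0.43 with SP, and Cd52, a lymphocyte surface protein gene, had -0.19 ± 0.53 and 0.12 ± 0.53, none past the test. The median signal of the 430 2.0 arrays was 77.7 and 83.0 in U, against 61.1 and 65.7 in WT. On 430A, where Ctsll3 in SP was close to WT, the 3′ to 5′ ratio of actin, a sign of RNA integrity, was 2.81 in SB, 3.66 in SP and 1.62 in U, against 2.47 in WT. On the 430 2.0 arrays that ratio lay between 1.58 and 1.75. The part of these differences in the changes of the 3 genes was not tested.

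Relatives and partners of the 3 genes were set out in 8 lists of 122 genes. Of these 106 had a probe set naming them alone and 62 passed the filter on low signal. With limma and Benjamini-Hochberg adjustment over all 27022 probe sets, 1 of the 62 fell with SB, 1 fell with SP and none passed with U, while 0.634%, 0.904% and 0.658% of all 12614 tested genes passed with SB, SP and U. The lists' counts are too small to set apart from those shares. At an unadjusted p under 0.05 in the same test, 2 were higher and 8 lower with SB, 1 higher and 9 lower with SP, and 5 higher and 5 lower with U. Of all tested genes 4.9% were higher and 6.48% lower with SB at that level, 4.59% higher and 5.64% lower with SP, and 7.59% higher and 5.8% lower with U. The median log2 change over all tested genes was 0.0059 with SB, -0.0016 with SP and 0.0483 with U.

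The gene that fell with SB was Serpinb6c, a serpin of the clade that inhibits serine proteases. Its signal was 1212.6, 3424.7 and 2999.5 in SB replicates 1 to 3, against 2314.3, 5478.2 and 4694.3 in WT. Each SB sample lay below its WT sample of the same array type, and the log2 change was -0.75 ± 0.12 (limma, adjusted p = 0.00734). The probe set is of a kind that can read several transcripts of a family. Without SB replicate 3 the adjusted p was 0.0554 and without WT replicate 1 it was 0.0694, in a range of 0.00659 to 0.0694 over the 12 samples left out in turn. The gene that fell with SP was Pcsk6, a proprotein convertase that cleaves precursors of secreted growth factors such as Nodal. Pcsk6 signal was 1097.7, 1042.6 and 962.3 in SP, against 2117.4, 1803.1 and 1856.7 in WT, with no overlap. The log2 change of Pcsk6 was -0.89 ± 0.14 (limma, adjusted p = 0.00365).

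Most of the listed relatives of Ctsll3 were below the filter. Of the 11 genes of the placental cathepsins and CTLA2 list, which includes Ctsl itself, 1 passed the filter. That gene was Ctsl, the general lysosomal cathepsin L, with a mean signal of 15334.5 on the 430 2.0 arrays and log2 changes of 0.21 ± 0.10 with SB, 0.03 ± 0.10 with SP and 0.09 ± 0.10 with U, none past the test. The other 10 had mean signals between 5.7 and 37.5, below the filter of 42.9. Of the 9 other papain-family cathepsins 4 were tested and none passed, with median log2 changes of -0.54 with SB, -0.52 with SP and -0.22 with U. Ctsh, a cathepsin with aminopeptidase activity, had signals of 149.2, 398.4 and 324.3 in SB, 259.9, 376.3 and 304.5 in SP and 200.5, 526.2 and 644.8 in U, against 435.7, 756.1 and 702.8 in WT. All inhibitor samples of Ctsh lay below WT of the same array type, but the adjusted p was 0.0581 with SB, 0.125 with SP and 0.371 with U in limma.

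None of the 6 tested kallikreins out of 16 listed passed with any inhibitor, and their median log2 change was 0.15 with SB, 0.14 with SP and 0.25 with U. Klk5, a trypsin-like kallikrein that activates the Klk7 precursor in skin, had signals of 851.4, 266.2 and 325.6 in U, against 441.5, 182.4 and 89.9 in WT. U was above WT in all 3 replicates of Klk5, with a log2 change of 1.06 ± 0.30 (limma, adjusted p = 0.155). Among the 11 other trypsin-like proteases tested, Pcsk6 was the only gene past the test. The median change of that list was -0.24 with SB, 0.01 with SP and 0.17 with U. Prss8, a membrane-anchored epithelial protease also known as prostasin, had a log2 change of 0.59 ± 0.16 with U (adjusted p = 0.124).

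**Figure D3:**
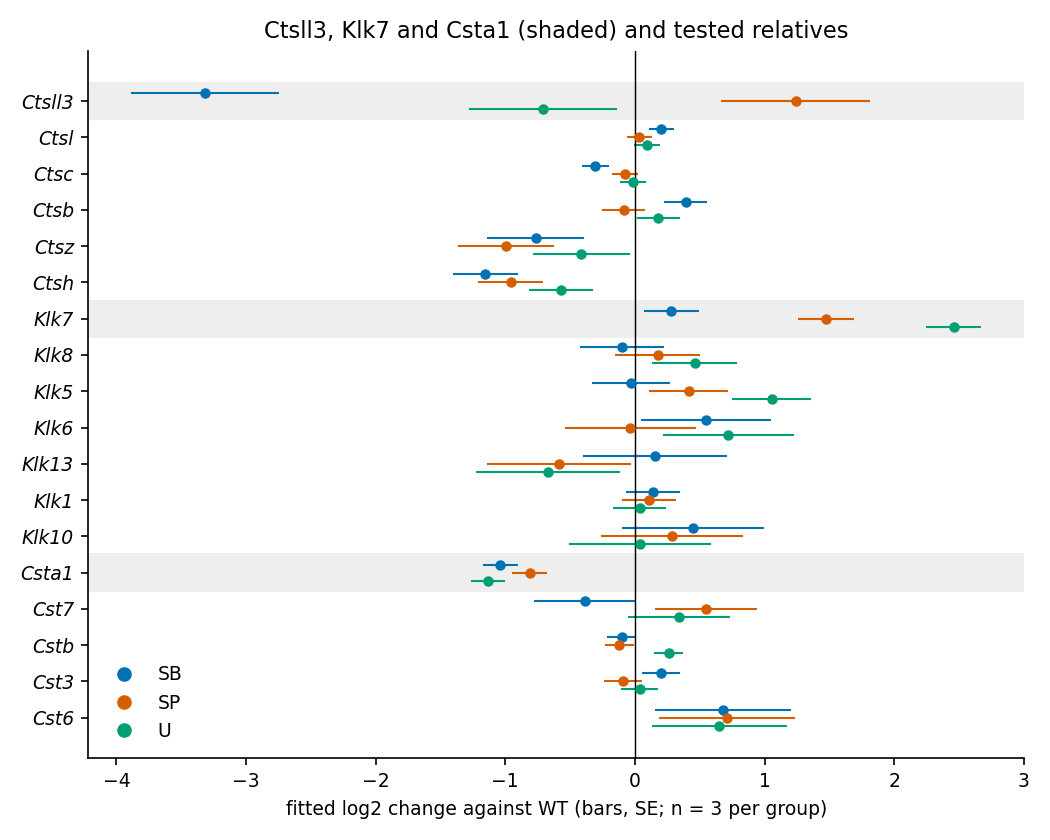
Fitted log2 change against WT (bars, SE, n = 3 per group) with SB, SP and U for Ctsll3, Klk7 and Csta1 (shaded) and the tested cathepsins, kallikreins, cystatins and stefins. Below Ctsll3, Ctsl lies near 0 and Ctsh lies left of 0 with each inhibitor, and with U the kallikrein farthest right after Klk7 is Klk5.

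The plot of relatives shows the 3 genes on the scale of their families. No tested relative in it passed the test, and the differences between each gene and its relatives were not themselves tested.

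Of 16 cystatins and stefins listed, 8 were named alone, 4 were tested and none passed, with median log2 changes of 0.05, 0.23 and 0.30 with SB, SP and U. Cstb, the stefin B gene whose product blocks the same class of cathepsins, had a mean signal of 24628.3 and a log2 change of 0.26 ± 0.11 with U (adjusted p = 0.36). There are 2 further tested probe sets that are each annotated to 2 stefin genes at once and cannot be given to either. For the brighter, the signal was 965.9, 582.3 and 650.9 in SB, 930.4, 880.7 and 829.4 in SP and 966.0, 581.0 and 697.1 in U, against 1846.4, 929.9 and 1183.9 in WT. All inhibitor samples of that probe set lay below WT of the same array type. Its log2 changes of -0.81 ± 0.18 with SB, -0.52 ± 0.18 with SP and -0.78 ± 0.18 with U did not pass (adjusted p = 0.059, 0.324 and 0.068 in limma). The dimmer probe set had signals of 28.8, 70.8 and 63.3 in SB, 64.7, 49.2 and 68.7 in SP and 8.8, 109.4 and 20.6 in U, against 7.5, 73.2 and 37.4 in WT. Its groups overlapped on the 430 2.0 arrays, and its log2 changes of 0.53 ± 0.58 with SB, 0.72 ± 0.58 with SP and 0.0025 ± 0.58 with U did not pass. Stefins are close in sequence, so reads of one by the probes of another cannot be told apart here, for Csta1 as well.

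Of 10 tested serine protease inhibitors Serpinb6c alone passed, with SB, and the list's median log2 change was -0.13 with SB, -0.33 with SP and -0.11 with U. Spint1 and Spint2, membrane-bound inhibitors of trypsin-like proteases, were well above the filter, with mean signals of 4077.4 and 3836.3 on the 430 2.0 arrays. Serpinb6b, a close relative of Serpinb6c, had a log2 change of -1.45 ± 0.32 with SB (adjusted p = 0.0619).

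The genes next to the 3 genes on their chromosomes were looked up after the data were seen, in RefSeq GRCm38.p6. Ctsll3 lies on chromosome 13 between BC051665 and 4930486L24Rik, Klk7 on chromosome 7 between Klk8 and Klk6, and Csta1 on chromosome 16 between Ccdc58 and Stfa2l1. BC051665 had no probe set naming it alone and was not analysed here. Of the neighbours tested 4930486L24Rik was the only one past the test. Its signal was 1310.5, 474.2 and 504.5 in SB, 1977.2, 737.9 and 594.2 in SP and 2150.5, 1177.9 and 1317.0 in U, against 3394.8, 1104.8 and 1055.5 in WT. SB was the lowest group on both array types, as for Ctsll3, while SP lay below WT for 4930486L24Rik and not for Ctsll3. 4930486L24Rik was on none of the gene lists, so the counts of listed cathepsins leave it out. Whether it belongs to the cathepsin family is not given here, and whether the Ctsll3 probe set reads its RNA was not tested. The log2 change of 4930486L24Rik was -1.20 ± 0.18 with SB (limma, adjusted p = 0.00494), -0.72 ± 0.18 with SP (adjusted p = 0.0988) and -0.08 ± 0.18 with U (adjusted p = 0.9). Without WT replicate 1 the adjusted p with SB was 0.053, the highest of a range that began at 0.00161 over the 12 samples left out in turn.

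Klk8 and Klk6, the kallikreins on either side of Klk7, had log2 changes of 0.46 ± 0.33 and 0.72 ± 0.51 with U, and neither passed (limma, adjusted p = 0.615 and 0.609). Klk8 signal was 198.0, 149.4 and 120.0 in U, against 122.8, 92.2 and 109.9 in WT, and Klk6 signal was 180.6, 46.0 and 150.4 in U, against 48.4, 84.1 and 57.3 in WT. The U and WT samples of Klk6 overlapped on the 430 2.0 arrays, and those of Klk8 did not. Ccdc58, beside Csta1, did not pass with any inhibitor. The probe set of Stfa2l1 was below the filter, at 24.8 and 25.1 in SB, 21.9 and 52.7 in SP and 36.9 and 25.8 in U, against 24.1 and 16.4 in WT on the 430 2.0 arrays.

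For each of the 3 genes the most similar genes were taken by Pearson correlation of log2 signal over the 12 samples, centred within array type, among tested genes with 1 probe set each. Rfx7, a transcription factor of the RFX family, was the most similar to Ctsll3 (r = 0.93), followed by E330016L19Rik and Acsl5, a long-chain acyl-CoA synthetase (r = 0.90 each). E330016L19Rik signal on the 430 2.0 arrays was 241.4 and 345.7 in SB, 774.6 and 820.8 in SP and 711.5 and 605.3 in U, against 604.7 and 698.3 in WT. SB was the lowest and SP the highest group on those arrays, over a narrower range than that of Ctsll3, while in replicate 1 the signal was 720.3 in SP, against 1015.4 in WT.

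Gadd45g, a stress-inducible growth arrest gene, was the most similar to Klk7 (r = 0.92), before Hspb8, a small heat shock protein (r = 0.90), and Ubac2 (r = 0.89). Gadd45g signal on the 430 2.0 arrays was 445.2 and 581.2 in SB, 755.7 and 626.8 in SP and 1039.8 and 747.8 in U, against 479.2 and 350.2 in WT. Cers3, a ceramide synthase for very long acyl chains, was the most similar to Csta1 (r = 0.94), before Cpn1, the catalytic chain of carboxypeptidase N (r = 0.93), and Pgam2, a phosphoglycerate mutase of muscle (r = 0.92). Cers3 signal was 251.8 and 221.8 in SB, 330.5 and 337.0 in SP and 274.7 and 253.1 in U, against 531.7 and 657.2 in WT. Like Csta1 it was highest in WT in both array types. The samples share groups and labelling, and these highest of many correlations are given only as a description.

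**Figure D4:**
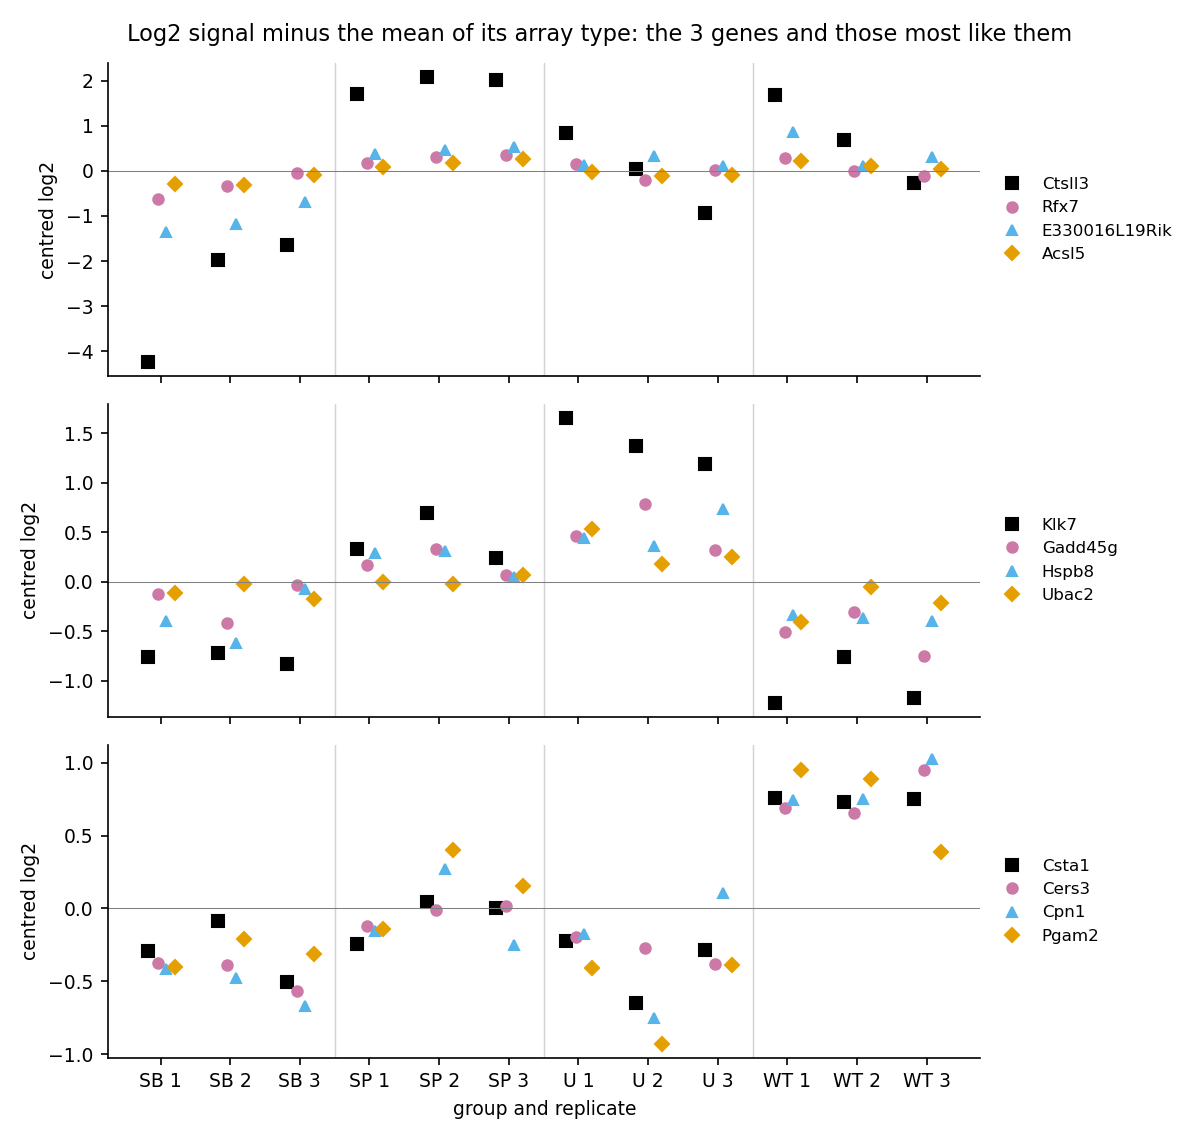
Log2 of signal plus the constant, minus the mean of its array type, in each sample (group and replicate number) for Ctsll3, Klk7 and Csta1 (black squares) and the 3 genes most similar to each (coloured). The genes beside Csta1 have their highest means in WT, and those beside Ctsll3 and Klk7 span a narrower range than these 2 genes.

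In the plot of similar genes, the companions of Ctsll3 had their lowest mean in SB and those of Klk7 their highest mean in U on each array type. The companions of Csta1 had their highest mean in WT on each array type.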

How the data were processed

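The files the authors deposited hold 1 signal intensity per probe set and array, on a linear scale, and each of the 16 arrays was checked to have a trimmed mean of 500. The software and background correction behind them are not stated. The 430A and 430B arrays of a replicate were joined into 1 sample. A constant of 12.6, which is the 20th percentile of all 430 2.0 signals, was added before log2. Control probe sets were left out, and a probe set was tested when its 430 2.0 mean was at or above the 40th percentile. Changes came from limma 3.58.1 in R 4.3.3, with group and array type in the model and an intensity trend, over all 12 samples and 27022 probe sets. P-values are two-sided, Benjamini-Hochberg adjusted, and measure only the spread between these samples, which may be technical, since the labels do not name separate cultures. The named genes are the 3 genes, list members past the test, close relatives, and the 3 most similar genes to each. Genes, lists and neighbours were chosen with earlier results of these data known. Alternatives were the constant, the filter, quantile normalization, the array type, the replicate block, the trend and leaving out each sample. Signals hold no counts, so precision is limited by how many arrays there are.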

Additional observations from a re-analysis of the deposited data

How the results depend on the processing

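Every fitted change of Ctsll3, Klk7 and Csta1 against WT kept its direction under all 8 alternative settings and with each of the 12 samples left out in turn. Since these changes chose the genes, this describes the processing and is no support for the changes. Over the settings Klk7 ranged between 2.25 and 2.49 with U and was at least 1.34 with SP, and Csta1 between -1.21 and -0.72 over the inhibitors. Ctsll3 with SB ranged between -3.55 and -2.01, with -2.68 for a constant of 50. With 1 sample left out, Ctsll3 lay between -3.84 and -2.24 with SB, 0.72 and 1.90 with SP and -1.29 and -0.0554 with U. The number of probe sets called over the whole arrays was far less stable. It was 105 with SB, 160 with SP and 121 with U. On the 430 2.0 arrays alone, with fewer samples, it was 35, 82 and 56 for SB, SP and U, without the intensity trend 1, 8 and 2, and with the filter at the 60th percentile 187 with U. Leaving out 1 sample gave 33 to 124 with SB, 76 to 193 with SP and 53 to 119 with U. The SB count moved most without SB replicates 2 (52) and 3 (41) and WT replicates 1 (33) and 2 (45). The SP count was 91, 91 and 76 without SP replicates 1, 2 and 3, and 86, 86 and 81 without those of WT. The U count was 53 and 60 without U replicates 2 and 3, and 59, 54 and 73 without WT replicates 1, 2 and 3. The fall of Serpinb6c with SB, of 4930486L24Rik with SB and of Pcsk6 with SP lost the call on the 430 2.0 arrays alone (adjusted p = 0.11, 0.0563 and 0.0533 in limma) and without the trend (0.203, 0.124 and 0.105). With the replicate block, the replicate number in place of array type, the counts were 121, 183 and 148. Paired numbers were not shown: replicate 2 minus 3 differences correlated at 0.02 to 0.09 between groups. Signals near background, such as Ctsll3 in SB replicate 1, limit the size of a change, since the constant sets it.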

Other observations

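Metalloproteases and their tissue inhibitors, a further class of secreted proteolysis, had 9 tested genes and none past the test with SB, SP or U in limma. At an unadjusted p under 0.05, which 5.64% of all tested genes passed in the lower direction with SP, 1 was lower with SP and none of the list did so with SB or U. That gene was Timp1, a secreted metalloprotease inhibitor, with signals of 155.2, 287.6 and 257.5 in SP, against 248.5, 562.5 and 603.7 in WT and a log2 change of -0.92 ± 0.22 (adjusted p = 0.0855).

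The cornified envelope and desmosome list, which takes in junction genes of skin, where Klk7 is best known, had 17 tested members. None passed the test with any inhibitor in limma. At an unadjusted p under 0.05, 1 was higher and 3 were lower with SB, 1 higher and 1 lower with SP, and 1 higher and 3 lower with U. Of all tested genes 4.9% were higher and 6.48% lower with SB at that level, 4.59% and 5.64% with SP, and 7.59% and 5.8% with U. Pkp2, a desmosomal plaque protein, had signals of 1389.3, 3671.7 and 4490.8 in U, against 2062.1, 6017.7 and 5475.4 in WT. Its log2 changes were -0.38 ± 0.12 with SB, -0.42 ± 0.12 with SP and -0.52 ± 0.12 with U (adjusted p = 0.238, 0.179 and 0.068).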
